A study of Mus musculus with 24 samples.

Results

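The T-box transcription factors described here are 7 genes, T (brachyury), Eomes, Tbx6, Tbx20, Tbx1, Tbx2 and Tbx3, selected by gene name from a deposited table of 18205 genes. The name of T is blank in that table, and its row was found by its Ensembl identifier, ENSMUSG00000062327. All 7 passed the filter on low values. Messenger RNA of 24 libraries was sequenced from mouse cells of 3 lines, 7H, 7H1 and 7H2, which carry OTX2-dTAG-EGFP on a BL6/129 hybrid background. At each of 4 stages there were 3 libraries with the degrader dTAG13, given for 21 h, and 3 with its vehicle DMSO, 1 from each line. The conversion began with EPI, epiblast stem cells, passed through PS, a primitive streak stage, and ended in definitive endoderm, taken at an earlier (DE1) and a later time (DE2). EPI medium held 20 ng/ml activin A, 12.5 ng/ml FGF2 and 175 nM NVP. PS cells had 40 ng/ml activin A plus 3 µM CHIR over 16 h, and endoderm cells 100 ng/ml activin A plus 100 nM LDN over 24 h (DE1) or 48 h (DE2). CHIR activates WNT signalling and LDN blocks BMP receptors. The comparison asks which genes need OTX2, stage by stage. The vehicle libraries carry the tagged OTX2 as well, so nothing here compares tagged with untagged cells. The labels do not say whether the 3 lines share a parent clone.

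T-box proteins bind DNA through a shared domain, the T-box, and recognise closely related half-sites. T is the classic marker of the primitive streak and is needed for posterior mesoderm, Eomes is needed in the mouse for definitive endoderm and for mesoderm to leave the streak, and TBX6 directs presomitic mesoderm. TBX1 acts in the pharyngeal endoderm and mesoderm and TBX20 in the heart, while TBX2 and TBX3 act mainly as repressors. OTX2 is a homeobox factor of the epiblast and of the anterior embryo, and a protein fused to a dTAG domain is sent to the proteasome when the degrader is added.

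Deposited totals were 24.4 to 27.2 M normalised reads per library, 15260 to 16536 genes lay above 0, and Pearson's r of the log2 values within groups was 0.953 to 0.971. The degrader acts on the protein, so Otx2 RNA does not check it. Otx2 was 0.60, 0.41 and 0.30 log2 units higher with dTAG13 in EPI, DE1 and DE2, and 0.34 lower in PS (log2 fold change -0.34). No Otx2 change passed limma, with adjusted p of 0.253 to 0.73, but all did with the line as a block, with adjusted p of 0.00222 to 0.0377. In DMSO libraries, summed epiblast markers were highest in EPI, at 119330 to 132700, and endoderm markers were far higher in DE1, at 100573 to 148415, than in PS, at 13084 to 25367. Streak markers summed to 1900 to 5089 in EPI, 65185 to 78153 in PS, 87282 to 95964 in DE1 and 40548 to 63165 in DE2. Lhx1, with a mean of 22615 in PS and 58068 in DE1, carries much of this sum, which did not mark PS out from DE1. Taken singly, 6 of the 10 streak markers fell and 3 rose in DE1 over PS in limma (22.4% and 21.7% of all genes). Their median log2 fold change at that step was -2.62. All values below are the authors' normalised read counts, listed in the order 7H, 7H1, 7H2. Log2 fold changes were computed on log2(value + 1), a scale that shrinks changes of genes with few reads, and come with their standard error (SE). A call means an adjusted p (Benjamini-Hochberg, limma, 15037 genes) under 0.05. In whole cultures, fewer cells of a type and less RNA per cell cannot be told apart.

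The clearest dTAG13 response of the family lay in DE2. There 5 of the 7 genes fell, Tbx1, Tbx20, Tbx3, Tbx2 and Tbx6, against 8.31% of all genes tested called lower, and in all 5 the dTAG13 libraries lay below every DMSO library (15.4% of all genes). The count was 3 without line 7H, 2 without line 7H1 and 4 without line 7H2. Over all genes, 882, 546 and 678 were called lower in these same fits, in place of 1250 with all lines. Of the 5 only Tbx20 stayed called under all alternatives run. None rose, against 8.65% of all genes. T and Eomes were not called in DE2. In DE1 none of the 7 was called, against 3.74% higher and 4.02% lower of all genes. In PS none was called, against 0.0865% higher and 0.133% lower, and in EPI none, against 0% higher and 0.0865% lower. At an unadjusted p under 0.05, limma found 0 members in EPI (3.55% of all genes), 0 in PS (7.96%) and 3 in DE1 (19.8%). With the line as a block, Eomes fell in PS (1.08% of all genes fell), T and Tbx3 rose and Tbx2 fell in DE1 (8.09% rose, 7.71% fell), and T rose in DE2 (14.1% rose). The median log2 fold change of the 7 in DE2 was -1.89, against -0.00368 over all genes tested.

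**Figure D1:**
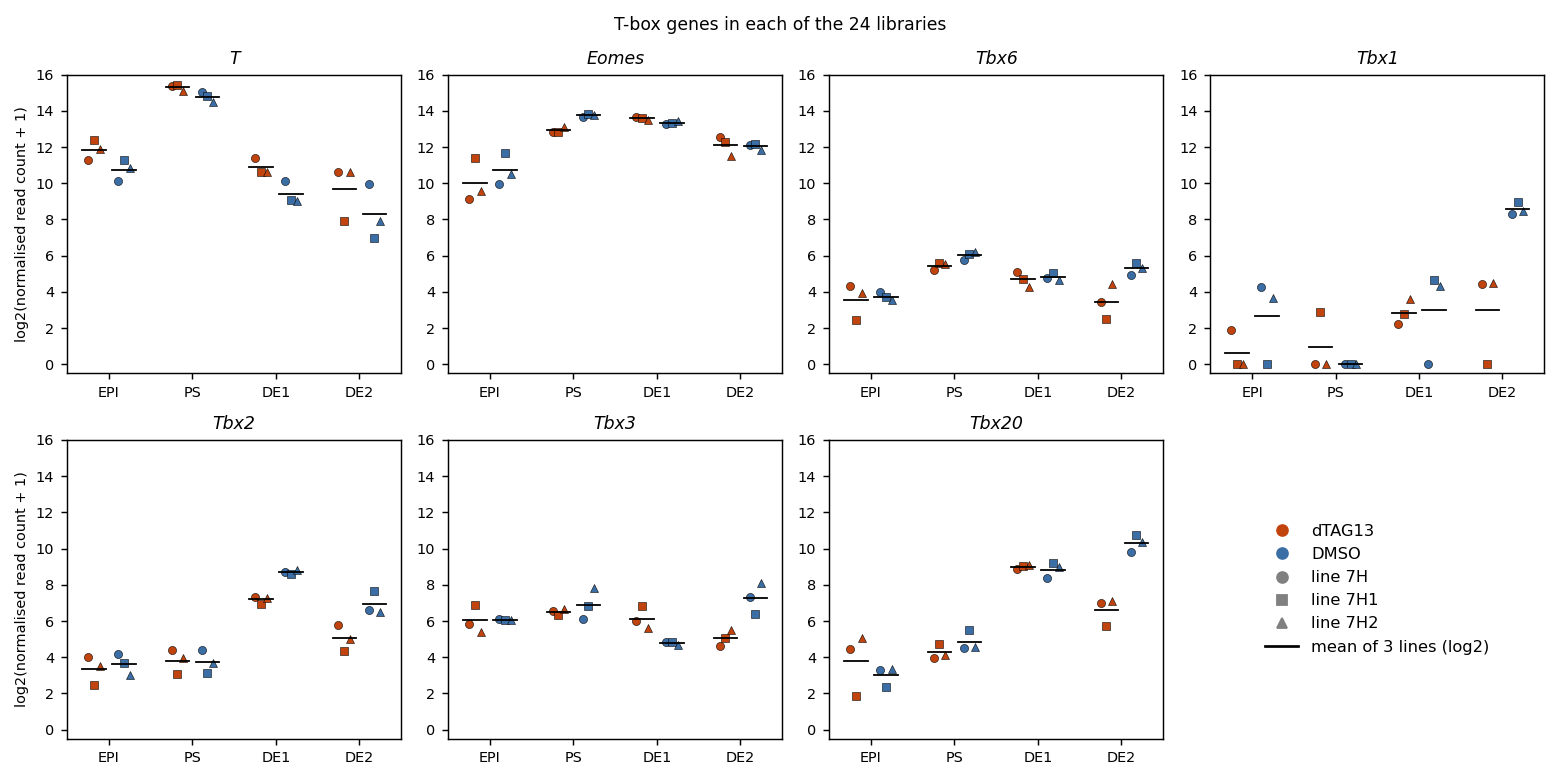
Log2 of the normalised read count plus 1 of each T-box gene (vertical axis) in the 24 libraries, by stage (horizontal axis), with dTAG13 in orange left of DMSO in blue. Symbols give the cell line and black bars the mean of the 3 log2 values. T peaks in PS, Eomes stays high from PS to DE1, and Tbx20 and Tbx1 are far lower with dTAG13 than with DMSO in DE2.

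The stretch around the start site is shown for the genes that the results turn on, T and Eomes as the most abundant members, and Tbx6, Tbx20 and Tbx1 as members that fell together in DE2. RefSeq (GRCm38.p6) gives windows of 250 bases before to 50 bases after a start for 5 of the 7 genes, 6 windows in all, written along the gene's own strand. Capitals mark matches, on either strand, to a TCF/LEF core (CTTTGA, read as TCAAAG on the other strand), a SMAD element (CAGAC, or GTCTG) or a TATA box (TATAAA, or TTTATA). The windows are at chr17:8434173-8434472 (T, plus strand), chr9:118477939-118478238 (Eomes, plus strand), chr7:126781233-126781532 (Tbx6, plus strand), chr9:24774254-24774553 (Tbx20, minus strand) and chr16:18588850-18589149 (Tbx1, minus strand, the start further downstream of 2).
T: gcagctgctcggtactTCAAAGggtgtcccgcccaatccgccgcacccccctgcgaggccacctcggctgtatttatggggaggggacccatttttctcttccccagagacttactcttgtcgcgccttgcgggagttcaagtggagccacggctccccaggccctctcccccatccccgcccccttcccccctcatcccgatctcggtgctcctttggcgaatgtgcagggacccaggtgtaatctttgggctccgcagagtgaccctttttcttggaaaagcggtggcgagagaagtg
Eomes: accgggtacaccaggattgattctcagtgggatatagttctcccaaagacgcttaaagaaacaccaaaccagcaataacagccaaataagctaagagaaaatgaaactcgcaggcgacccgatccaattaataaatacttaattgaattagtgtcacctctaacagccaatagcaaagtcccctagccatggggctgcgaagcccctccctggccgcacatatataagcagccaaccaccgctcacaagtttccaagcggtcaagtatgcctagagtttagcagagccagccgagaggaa
Tbx6: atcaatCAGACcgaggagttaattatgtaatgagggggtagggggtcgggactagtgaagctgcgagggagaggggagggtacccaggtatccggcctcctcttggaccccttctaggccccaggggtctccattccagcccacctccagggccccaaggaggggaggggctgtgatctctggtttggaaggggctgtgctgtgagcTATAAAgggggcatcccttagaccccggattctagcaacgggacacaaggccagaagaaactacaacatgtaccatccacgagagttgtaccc
Tbx20: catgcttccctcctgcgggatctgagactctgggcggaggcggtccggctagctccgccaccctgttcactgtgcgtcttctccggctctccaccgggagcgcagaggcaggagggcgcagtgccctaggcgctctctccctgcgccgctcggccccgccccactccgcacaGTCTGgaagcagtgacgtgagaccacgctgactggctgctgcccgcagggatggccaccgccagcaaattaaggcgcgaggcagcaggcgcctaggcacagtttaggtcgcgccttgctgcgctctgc
Tbx1: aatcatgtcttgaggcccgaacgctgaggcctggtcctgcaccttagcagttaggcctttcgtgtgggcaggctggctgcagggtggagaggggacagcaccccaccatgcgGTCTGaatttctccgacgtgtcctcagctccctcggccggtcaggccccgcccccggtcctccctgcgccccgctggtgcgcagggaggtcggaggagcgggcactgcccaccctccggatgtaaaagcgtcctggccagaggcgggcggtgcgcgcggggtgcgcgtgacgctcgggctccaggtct
The T window holds 1 TCF/LEF core, at position -234 from the start, and 16.0% of 32851 RefSeq windows hold one on either strand. TCF and LEF factors carry the WNT signal to DNA. The Tbx20 window has a SMAD element at -78, the Tbx1 window at -138 and the Tbx6 window at -244, and 49.6% of all windows have one. Tbx6 also has a TATA box at -43, found in 13.6% of windows. Neither an OTX2 core (TAATCC, 7.06% of windows) nor a T-box half-site (TCACACC, 3.98%) stands in any of the 6 windows, which says only that these letters are not in those stretches.

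Levels of the 7 genes were compared with each other per kb of exon, since their exons span 1804 bp (Tbx6) to 11997 bp (Tbx20) in GENCODE M21. In EPI with DMSO, T made up 63.0% and Eomes 34.7% of the summed level of the 7 genes per kb, and their ranges over the 3 lines overlapped. In PS with DMSO the order was T (9776 to 14377 per kb), Eomes (3123 to 3527), then Tbx6 (29.7 to 40.1) and Tbx3 (10.2 to 33.8), which overlapped. In DE1 with DMSO, Eomes led with 83.6% of the sum, ahead of T with 10.4%, Tbx2 with 3.86% and Tbx20 with 1.31%, and none of these neighbours overlapped. In DE2 with DMSO, Eomes still led with 67.3%, but T with 12.2%, Tbx20 with 7.48% and Tbx1 with 7.39% lay in one overlapping range. With dTAG13 the same sum in DE2 was 69.1% Eomes and 28.8% T, with 0.535% Tbx20 and 0.235% Tbx1. The T share was thus higher and the Tbx20 and Tbx1 shares lower with dTAG13, while the means of Eomes lay close together. In PS with dTAG13, T held 89.9% and Eomes 9.86%, against 77.8% T and 21.8% Eomes with DMSO.

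**Figure D2:**
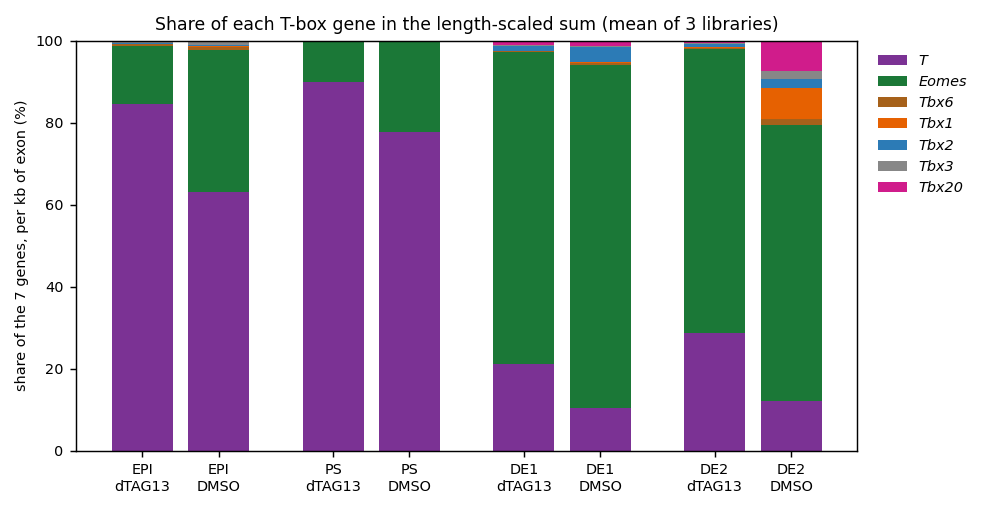
Share of each T-box gene in the sum of the 7 genes per kb of exon (vertical axis, %), as the mean of 3 libraries, for each stage with dTAG13 left of DMSO. The T share is larger with dTAG13 at every stage, and the Tbx20 and Tbx1 segments seen in DE2 with DMSO are nearly absent with dTAG13.

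T (chr17:8434423-8442496, mm10, plus strand) had 42622, 43092 and 35291 normalised reads in PS with dTAG13, and 33284, 28404 and 22631 with DMSO. All 3 dTAG13 libraries lay above the DMSO libraries in PS, as did 6.77% of all genes. In EPI it had 2450, 5427 and 3733 with dTAG13 and 1121, 2475 and 1805 with DMSO, where line 7H with dTAG13 lies just under line 7H1 with DMSO. In DE1 it had 2672, 1567 and 1590 with dTAG13 and 1135, 534 and 515 with DMSO, again without overlap (16.4% of all genes on that side). In DE2 it had 1558, 237 and 1575 with dTAG13 and 987, 126 and 245 with DMSO. Within each line, T was higher with dTAG13 at every stage, in 12 of 12 pairs of libraries. The lines themselves differed up to several-fold, and line 7H1 was the highest in EPI and the lowest in DE2 with both treatments.

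Without the line in the model, the dTAG13 difference in T did not pass at any stage. The log2 fold changes were 1.10 in EPI (SE 0.69, adjusted p = 1), 0.53 in PS (adjusted p = 0.908), 1.47 in DE1 (adjusted p = 0.249) and 1.42 in DE2 (adjusted p = 0.19). With the line as a block, T rose in DE1 (adjusted p = 0.00691) and DE2 (adjusted p = 0.00522), and did not pass in EPI (adjusted p = 0.209) or PS (adjusted p = 0.414). No difference of the T effect between successive stages passed, with or without the block. In DMSO, T rose by 4.02 (SE 0.69) in PS over EPI (adjusted p = 0.00043) and fell by 5.35 in DE1 under PS (adjusted p = 8.26e-06). The further step of -1.12 in DE2 over DE1 did not pass (adjusted p = 0.221).

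Eomes (chr9:118478212-118486132, plus strand) had 7307, 7321 and 8859 in PS with dTAG13, and 12975, 14653 and 13948 with DMSO. These groups are well apart, with every dTAG13 library below every DMSO one (5.87% of all genes). In DE1 the order was the other way, with 12745, 12643 and 11347 with dTAG13 and 9967, 10240 and 11054 with DMSO (16.4% of all genes lay without overlap on that side). In EPI it had 556, 2648 and 755 with dTAG13 and 989, 3241 and 1469 with DMSO, lower with dTAG13 in each line but overlapping between groups. In DE2 it had 6033, 4957 and 2936 with dTAG13 and 4343, 4637 and 3680 with DMSO, with lines going both ways. An antisense gene, Gm33460, overlaps an Eomes exon and is not a row of the table, and without the strand setting their reads cannot be told apart.

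The log2 fold change of Eomes with dTAG13 was -0.83 in PS (SE 0.44, adjusted p = 0.664), where it fell with the line as a block (adjusted p = 0.00886). It was -0.69 in EPI (adjusted p = 1, and 0.0518 with the block), 0.23 in DE1 (adjusted p = 0.852) and 0.08 in DE2 (95% interval -0.83 to 0.996, adjusted p = 0.934). The effect in DE1 minus that in PS was 1.06 (SE 0.62, adjusted p = 0.558) and passed with the line as a block (adjusted p = 0.00677, 2.93% of all genes higher). In DMSO, Eomes rose by 3.04 in PS over EPI (SE 0.44, adjusted p = 5.84e-05). The step of -0.41 in DE1 over PS did not pass (adjusted p = 0.476). It fell by 1.31 in DE2 under DE1 (adjusted p = 0.0228), a call lost without line 7H or without line 7H2.

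The ratio of T to Eomes per kb is given as a description, chosen because T was higher and Eomes lower with dTAG13 in PS, which already sets the treatments apart there. In PS there were 10.5, 10.6 and 7.15 T per Eomes with dTAG13, and 4.60, 3.48 and 2.91 with DMSO. In EPI the ratio was 7.91, 3.68 and 8.87 with dTAG13, and 2.03, 1.37 and 2.21 with DMSO. In EPI too the ratio with dTAG13 lies above that with DMSO in every library. There also T was higher and Eomes lower with dTAG13 in each line, which already sets the direction within lines, and neither gene was called. In DE1 the ratio was 0.376, 0.222 and 0.252 with dTAG13, and 0.204, 0.0937 and 0.0836 with DMSO, also without overlap. In DE2 it was 0.463, 0.0859 and 0.963 with dTAG13, and 0.408, 0.0487 and 0.119 with DMSO, higher with dTAG13 in each line but overlapping between treatments. In EPI, line 7H1, the highest for both genes, also had the highest summed streak markers, 5773 against 1479 and 2459 in the other dTAG13 libraries, and 5089 against 1900 and 3062 in the other DMSO libraries. Their part in the levels of T and Eomes was not tested.

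Tbx6 (chr7:126781483-126785560, plus strand) was a low transcript throughout. In PS it had 35.8, 48.0 and 46.1 with dTAG13 and 53.6, 67.0 and 72.3 with DMSO, without overlap (5.87% of all genes on that side). DE2 libraries had 9.72, 4.58 and 20.3 with dTAG13 and 29.9, 48.2 and 38.8 with DMSO, again without overlap (15.4% of all genes). In EPI it ranged from 4.47 to 18.9 with dTAG13 and from 10.6 to 14.7 with DMSO, and in DE1 from 18.1 to 33.9 with dTAG13 and from 23.9 to 31.4 with DMSO, so at both stages the groups overlapped. Tbx6 fell by 1.86 on the log2 scale in DE2 (SE 0.48, adjusted p = 0.00948). The call was lost without line 7H, without line 7H1 and in a fit of the DE2 libraries alone, with an adjusted p of up to 0.199. The log2 fold change in PS of -0.56 did not pass (adjusted p = 0.821), nor did -0.18 in EPI or -0.10 in DE1. In DMSO it rose by 2.27 in PS over EPI (SE 0.48, adjusted p = 0.00144), a call lost without line 7H2. It fell by 1.21 in DE1 under PS (adjusted p = 0.0454), which did not pass with the line as a block (adjusted p = 0.0504) and was lost under 7 of 10 alternatives.

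Markers of presomitic and paraxial mesoderm, the tissue that TBX6 directs, summed to 381 to 641 in DE2 with dTAG13 and to 826 to 972 with DMSO. Of 10 such markers, 2 were at 0 in all 3 DE2 libraries with dTAG13 and 0 with DMSO. Of the 9 tested, 1 fell and none rose in DE2, against 8.31% lower and 8.65% higher of all genes, so the count that fell is near the background. The gene that fell was Pax3, which had 4.60, 8.56 and 5.63 with dTAG13 and 312, 218 and 255 with DMSO (log2 fold change -5.20, adjusted p = 1.96e-06). Pax3 thus carries much of the gap between the sums, and the median log2 fold change of the 9 was -0.38. Msgn1, a presomitic regulator, was listed at 0, 0 and 2.41 with dTAG13 and at 1.70, 0 and 0 with DMSO in DE2. In PS it stood at 143, 185 and 129 with dTAG13 and 69.3, 44.5 and 41.6 with DMSO, a log2 fold change of 1.56 that did not pass (adjusted p = 0.536). The part of such cells in the Tbx6 level was not tested.

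Tbx20 (chr9:24718138-24774303, minus strand) was induced step by step in DMSO and was the member with the smallest adjusted p for dTAG13. In DE2 it had 128, 51.1 and 135 with dTAG13, and 912, 1744 and 1332 with DMSO. In DE1 it had 463, 519 and 546 with dTAG13, and 333, 577 and 497 with DMSO. The groups overlap in DE1 and are far apart in DE2, where the mean with dTAG13 was 7.88% of the DMSO mean. In PS it had 14.6, 26.0 and 16.2 with dTAG13 and 21.9, 44.0 and 22.6 with DMSO, and in EPI 21.2, 2.61 and 33.0 with dTAG13 and 8.74, 4.16 and 9.18 with DMSO. At these early stages the gene was low and the groups overlapped.

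Tbx20 fell by 3.73 on the log2 scale in DE2 (SE 0.58, adjusted p = 9.41e-05), lower with dTAG13 in 3 of 3 lines, and stayed called under all 11 alternatives. It was 0.15 in DE1 (95% interval -1.05 to 1.36, adjusted p = 0.939), -0.58 in PS (adjusted p = 0.859) and 0.80 in EPI (adjusted p = 1). The dTAG13 effect in DE2 minus that in DE1 was -3.88 (SE 0.82, adjusted p = 0.00657), a call lost without line 7H or without line 7H2. In DMSO, Tbx20 rose by 1.86 in PS over EPI (SE 0.58, adjusted p = 0.0213), lost without line 7H or 7H2, and by 3.98 in DE1 over PS (adjusted p = 1.14e-05). It rose by another 1.49 in DE2 over DE1 (adjusted p = 0.0467), a call lost under 6 of 10 alternatives.

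Tbx1 (chr16:18580979-18590671, minus strand) was close to absent before DE2. In DE2 it had 21.0, 0 and 21.6 with dTAG13, and 318, 495 and 353 with DMSO. In DE1 it had 3.63, 5.85 and 11.0 with dTAG13, and 0, 24.0 and 18.8 with DMSO. The DE2 libraries with DMSO thus stood above every other library of the series, and those with dTAG13 within the range of DE1 with DMSO. In PS it was listed at 0, 6.43 and 0 with dTAG13 and at 0 in all 3 DMSO libraries. Its fold change in PS was fitted but is not read, and differences of effect that involve PS rest on it. In EPI it was 2.77, 0 and 0 with dTAG13 and 18.1, 0 and 11.9 with DMSO.

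Tbx1 fell by 5.59 on the log2 scale in DE2 (SE 1.28, adjusted p = 0.00392), lower in 3 of 3 lines, with a mean 3.65% of the DMSO mean. The size rests in part on line 7H1, listed at 0 with dTAG13: without it the log2 fold change was -3.91 and did not pass (adjusted p = 0.0603). In DMSO, Tbx1 rose by 5.60 in DE2 over DE1 (SE 1.28, adjusted p = 0.00156). The effect in DE2 minus that in DE1 was -5.47 (SE 1.81, adjusted p = 0.0776) and passed with the line as a block (adjusted p = 0.0277, 7.4% of all genes lower).

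Tbx2 (chr11:85832551-85841948, plus strand) came on in DE1. It had 162, 123 and 155 there with dTAG13, and 417, 387 and 458 with DMSO. In DE2 it had 53.2, 19.6 and 30.7 with dTAG13, and 97.9, 198 and 90.4 with DMSO. At both endoderm times every dTAG13 library lay below every DMSO library, as for 16.7% of all genes in DE1 and 15.4% in DE2. Before that it was at 7.48 to 20.3 with dTAG13 and 7.64 to 20.0 with DMSO in PS, and at 4.58 to 15.3 with dTAG13 and 6.99 to 17.2 with DMSO in EPI. It fell by 1.89 in DE2 (SE 0.48, adjusted p = 0.00906), a call lost without line 7H1 or without line 7H2. The log2 fold change in DE1 was -1.52 (SE 0.48, adjusted p = 0.059), and it fell with the line as a block (adjusted p = 0.0283). In DMSO, Tbx2 rose by 4.99 in DE1 over PS (SE 0.48, adjusted p = 5.47e-08) and fell by 1.79 in DE2 under DE1 (adjusted p = 0.00555, lost without line 7H2).

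Tbx3 (chr5:119670669-119684724, plus strand), also known as a factor of naive embryonic stem cells, differed in opposite senses at the 2 endoderm times. DE1 libraries had 62.2, 113 and 47.2 with dTAG13, and 28.2, 27.4 and 24.7 with DMSO. DE2 libraries had 23.2, 32.6 and 44.5 with dTAG13, and 156, 82.7 and 270 with DMSO. Every dTAG13 library thus lay above the DMSO libraries in DE1 (16.4% of all genes) and below them in DE2 (15.4%). In PS it had 94.3, 79.0 and 100.2 with dTAG13 and 67.2, 112 and 224 with DMSO, and in EPI 56.1, 119 and 40.5 with dTAG13 and 69.3, 64.6 and 64.8 with DMSO, with overlap at both stages.

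Tbx3 fell by 2.20 in DE2 (SE 0.46, adjusted p = 0.0019), a call lost without line 7H (adjusted p = 0.0641). The log2 fold change in DE1 was 1.34 (SE 0.46, adjusted p = 0.0836), and Tbx3 rose there with the line as a block (adjusted p = 0.0339). The effect in DE2 minus that in DE1 was -3.54 (SE 0.65, adjusted p = 0.00231), a call lost without line 7H. In DMSO, Tbx3 fell by 2.12 in DE1 under PS (SE 0.46, adjusted p = 0.000834) and rose by 2.46 in DE2 over DE1 (adjusted p = 0.000254). The step of 0.84 in PS over EPI did not pass (adjusted p = 0.188). The antisense gene Tbx3os1 overlaps an exon of Tbx3 and is not a row of the table, so the same limit of strand holds as for Eomes.

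**Figure D3:**
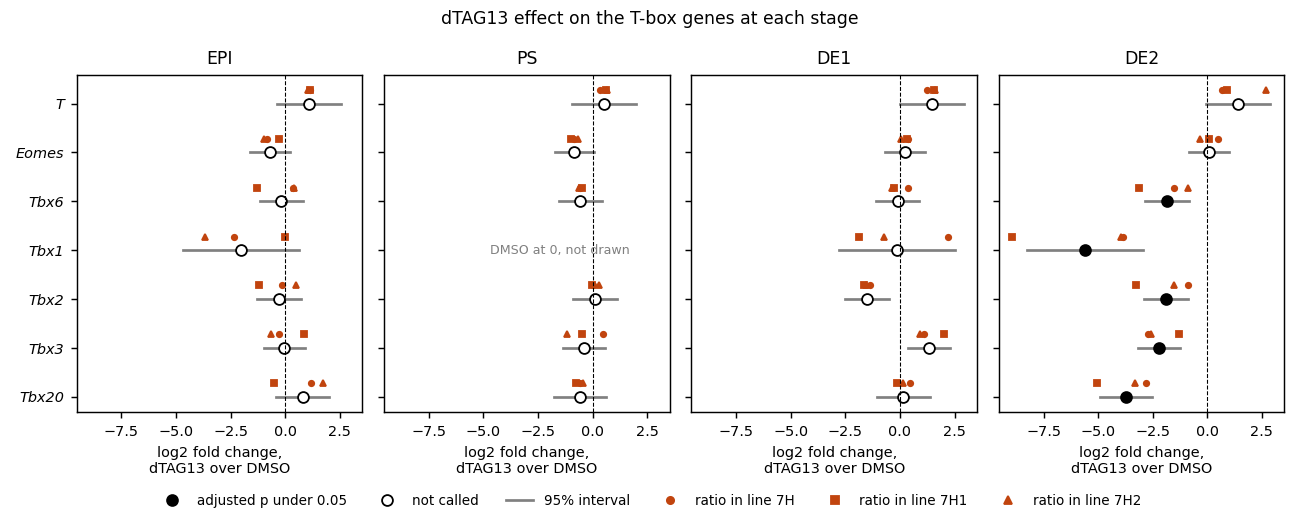
Log2 fold change of dTAG13 over DMSO (horizontal axis) for each T-box gene at the 4 stages, from limma without the line as a block. Circles give the estimate, filled where the adjusted p was under 0.05, grey lines the 95% interval, and small orange symbols the log2 ratio in each line. In DE2 the 5 filled circles lie between -5.59 (Tbx1) and -1.86 (Tbx6), and T lies right of 0 in every line at every stage. Tbx1 in PS is not drawn because DMSO is listed at 0.

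In DMSO the members came on in an order that the stage steps describe. In PS over EPI, 4 of the 7 rose (T, Eomes, Tbx6 and Tbx20) and none fell, against 14.6% and 12.8% of all genes tested. In DE1 over PS, 2 rose (Tbx2 and Tbx20) and 3 fell (T, Tbx3 and Tbx6), against 21.7% and 22.4%. In DE2 over DE1, 3 rose (Tbx1, Tbx3 and Tbx20) and 2 fell (Tbx2 and Eomes), against 20.2% and 19.1%. After the libraries were rescaled to equal totals, the split of all genes in PS over EPI was 1693 higher and 2362 lower, in place of 2200 and 1932. Tbx20 was the member called upward at each step. Successive steps share the libraries of the stage between them, so a high or low value there enters both with opposite sign.

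**Figure D4:**
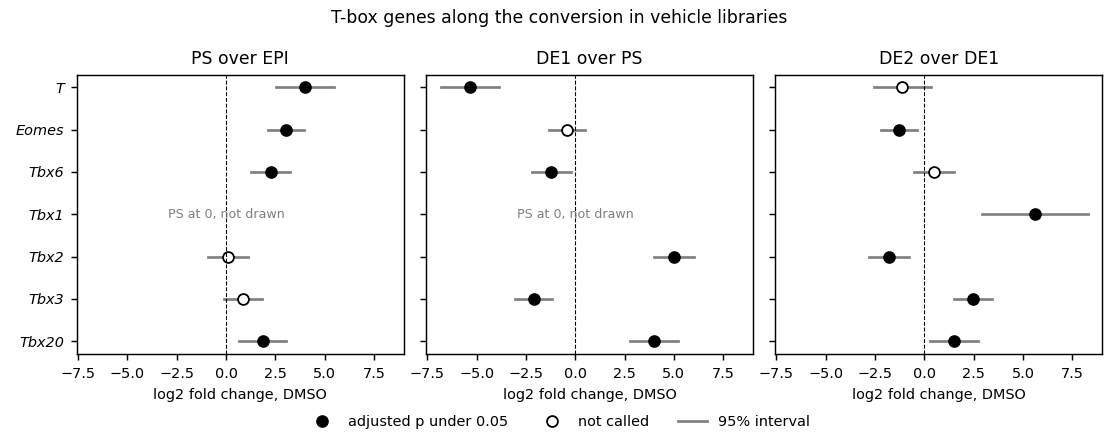
Log2 fold change between successive stages with DMSO (horizontal axis), later over earlier, for each T-box gene. Circles are filled where the adjusted p was under 0.05 and grey lines are 95% intervals. T moves by 4.02 in PS over EPI and by -5.35 in DE1 over PS, and Tbx2 by 4.99 in DE1 over PS. Tbx1 is not drawn for steps that involve PS, where it is listed at 0.

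The dTAG13 effect itself was compared between successive stages. From DE1 to DE2 it changed for 2 of the 7, Tbx20 and Tbx3, both lower, against 3.03% of all genes lower and 2.92% higher. With libraries rescaled to equal totals the split over all genes was 338 higher and 552 lower, in place of 439 and 456. From PS to DE1 none of the 7 passed, against 0.818% higher and 1.32% lower, with 2 at an unadjusted p under 0.05 (11.9% of all genes). From EPI to PS none passed, against 0.00665% higher and 0.00665% lower, with 0 at an unadjusted p under 0.05 (3.98% of all genes). For DE1 itself, equal totals gave 733 genes higher and 484 lower, in place of 562 and 605.

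Of 10 further family genes, 8 had a row and 6 passed the filter, Tbr1, Tbx15, Tbx18, Tbx19, Tbx21 and Mga, and none was called for dTAG13 at any stage. Mga, a large protein with both a T-box and a bHLH domain, was the most abundant of them, with 3857 to 3941 in DE1 with dTAG13 and 5023 to 5556 with DMSO. That log2 fold change of -0.42 did not pass (adjusted p = 0.359). With the line as a block 1 of the 6, Mga, fell in DE1 and in PS (7.71% and 1.08% of all genes). Tbr1, a close relative of Eomes best known from the cortex, had 41.2, 15.5 and 9.25 in DE2 with dTAG13, and 5.92, 1.75 and 4.47 with DMSO. Its log2 fold change of 2.03 missed the threshold (SE 0.72, adjusted p = 0.0558), and it rose with the line as a block (adjusted p = 0.0283). Tbx18 had a single high library, 134 in line 7H1 with dTAG13 in DE2, while all its other DE2 values lay between 5.39 and 12.6. In DMSO, Tbx19 rose by 3.17 in DE1 over PS (adjusted p = 0.00667), Tbx15 fell by 2.002 at the same step (adjusted p = 0.0144), and Tbr1 fell by 2.49 in DE2 under DE1 (adjusted p = 0.0085). Tbx4 and Tbx5 did not pass the filter.

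RIPPLY proteins bind T-box factors and bring in corepressors of the TLE family. Of 6 such partners tested, none rose and 3 fell in DE2 with dTAG13 (8.31% of all genes fell), and none rose and 3 fell in DE1 (4.02%). Ripply1 was listed at 0 in all 3 DE2 libraries with dTAG13, and had 56.2, 97.7 and 57.3 with DMSO. In DE1 it had 2.76, 1.996 and 0.990 with dTAG13 and 56.5, 73.5 and 31.2 with DMSO, and fell by 4.20 on the log2 scale (SE 0.63, adjusted p = 0.000131). Tle4 fell by 0.95 in DE2 (adjusted p = 4.75e-06) and by 0.64 in DE1 (adjusted p = 0.000981), and Tle3 by 0.64 in DE2 (adjusted p = 0.000201) and by 0.40 in DE1 (adjusted p = 0.022). The median of the 6 was -0.79 in DE2 and -0.52 in DE1, against -0.00368 and 0 over all genes. In DMSO, Ripply1 rose by 3.39 in DE1 over PS (adjusted p = 0.000163), a step at which Tbx2, Tbx20 and 21.7% of all genes rose. Blocking by line, 5 of the 6 partners fell in DE2, against 13.4% of all genes.

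Of 16 streak and presomitic genes that T or TBX6 is known to drive, none rose at any stage with dTAG13. In DE1 1 fell, Lfng, a modifier of NOTCH (log2 fold change -1.74, SE 0.40, adjusted p = 0.0074). Of all genes, 3.74% rose and 4.02% fell in DE1, and 8.65% and 8.31% in DE2. In EPI and PS at most 0.133% did so in either direction. At such shares few calls are due among 16 genes. Blocking by line, 1 rose in EPI (0.153% of all genes), 4 rose and 1 fell in DE1 (8.09% and 7.71%), and 3 rose in DE2, close to the 14.1% of all genes that did. Evx1, a posterior homeobox gene, had 320, 168 and 212 in DE1 with dTAG13 and 111, 49.6 and 53.5 with DMSO, and its log2 fold change of 1.74 did not pass (adjusted p = 0.0947). Mesp1, the early mesoderm regulator, had 264, 699 and 1020 in PS with dTAG13 and 1102, 1995 and 2971 with DMSO, a log2 fold change of -1.70 that did not pass (adjusted p = 0.443). In DMSO, 13 of the 16 rose and 1 fell in PS over EPI (14.6% and 12.8% of all genes). In DE1 over PS, 2 rose and 12 fell (21.7% and 22.4%). The medians of these steps were 3.63 and -3.98, beside -0.0114 and -0.00952 over all genes.

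Of 15 mesendoderm genes counted among EOMES targets, all 15 rose in PS over EPI in DMSO (14.6% of all genes), with a median of 3.67. With dTAG13, 4 fell in EPI, 3 in PS, 3 in DE1 and 8 in DE2, against 0.0865%, 0.133%, 4.02% and 8.31% of all genes. Only 1 rose, in DE2 (8.65%). The block raised these counts to 7 lower in EPI (0.419% of all genes), 9 in PS (1.08%), 9 in DE1 (7.71%) and 9 in DE2 (13.4%). With it, 2 were higher in DE1 (8.09% of all genes) and 2 in DE2 (14.1%), the latter near the background. Their medians with dTAG13 were -0.90, -1.03, -0.75 and -1.02 in EPI, PS, DE1 and DE2, against -0.013, -0.00472, 0 and -0.00368 over all genes. Sox17, a regulator of endoderm, had 45.5, 175 and 191 in PS with dTAG13 and 1134, 2443 and 3031 with DMSO, and fell by 4.13 (SE 0.50, adjusted p = 0.000485). Sox17 fell also in EPI, by 3.32 (adjusted p = 0.0104), and in DE1, by 1.95 (adjusted p = 0.0196). Cxcr4, the chemokine receptor of migrating endoderm, fell by 3.38 in PS (adjusted p = 8.73e-05), and Gsc, a homeobox gene of the anterior streak, by 2.85 in DE2 (adjusted p = 3.28e-06). Eomes was lower with dTAG13 in 3 of 3 lines in EPI and in PS, higher in 3 of 3 lines in DE1, and went both ways in DE2, and its part in the values of these genes was not tested.

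Among 20 genes of the WNT and NODAL inputs to the streak, 3 rose and 2 fell in DE1 (3.74% and 4.02% of all genes), and 2 rose and 5 fell in DE2 (8.65% and 8.31%), where the count of those that rose is near the background. Blocking by line gave 4 higher and 5 lower in DE1 (8.09% and 7.71% of all genes), and 6 higher and 8 lower in DE2 (14.1% and 13.4%). Axin2, a feedback inhibitor induced by WNT, had 806, 770 and 715 in DE1 with dTAG13 and 267, 253 and 271 with DMSO, and rose by 1.53 (SE 0.30, adjusted p = 0.00251). Wnt3, the streak ligand, had 1014, 686 and 874 with dTAG13 and 388, 367 and 419 with DMSO in DE1, and rose by 1.11 there (adjusted p = 0.00625) and by 1.55 in DE2 (adjusted p = 0.000134). Dkk1, a secreted WNT antagonist, fell by 3.93 in DE2 (adjusted p = 2.3e-05), with 286, 1204 and 982 with dTAG13 and 9362, 11976 and 10859 with DMSO. None of the 20 passed in PS, and 1 fell in EPI, again Dkk1 (log2 fold change -4.11, adjusted p = 0.0016). The median of the 20 was 0.15 in DE1 and -0.23 in DE2, against 0 and -0.00368 over all genes, so the list as a whole had no single direction.

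Genes of the pharyngeal and early heart fields, where TBX1 and TBX20 act, were called about as often as other genes in DE2. Of 17 tested, 2 rose and 2 fell there (8.65% and 8.31% of all genes), with a median of 0, and 4 rose and 4 fell with the line as a block (14.1% and 13.4%). Isl1, a LIM homeobox gene of the second heart field and pharyngeal endoderm, had 40.3, 25.7 and 142 with dTAG13 and 1367, 2161 and 1489 with DMSO, and fell by 4.92 (SE 0.61, adjusted p = 6.24e-06). Fgf10, a growth factor of the same field, rose by 1.84 (adjusted p = 0.000157), with 3626, 4674 and 1668 with dTAG13 and 880, 1126 and 618 with DMSO. Six2, a homeobox gene, rose by 1.48 (adjusted p = 0.0305). In DMSO, Isl1 rose by 5.11 in DE2 over DE1 (adjusted p = 1.66e-06), a step at which Tbx1 and 20.2% of all genes rose.

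Markers of heart muscle were low in DE2, with summed values of 137 to 276 with dTAG13 and 350 to 592 with DMSO. Of 10 such markers, 2 were at 0 in all DE2 libraries of either treatment and 7 were tested. In DE2, 3 of them fell (8.31% of all genes) and none rose, the contractile genes Myl4 (-4.85, adjusted p = 0.00047), Myl7 (-1.71, adjusted p = 0.0308) and Actn2 (-1.64, adjusted p = 0.0349). Tnnt2, cardiac troponin T, had 99.9, 173 and 71.1 with dTAG13 and 74.5, 65.6 and 88.5 with DMSO in DE2, and 179, 98.3 and 106.7 with dTAG13 and 56.3, 39.5 and 52.7 with DMSO in DE1. Nppa, an atrial peptide gene, had 17.8, 4.79 and 3.12 with dTAG13 and 1.67, 3.35 and 3.76 with DMSO in DE2. In DE2, Tnnt2 and Nppa were thus higher with dTAG13 in lines 7H and 7H1 and lower in line 7H2, and neither was called. The median log2 fold change of the 7 tested heart markers in DE2 was -1.64, against -0.00368 over all genes. Nkx2-5, a defining heart factor, was listed at 0, 0 and 2.30 with dTAG13 and at 4.12, 1.10 and 0 with DMSO, and Myh6 and Mef2c were listed at 0 in every DE2 library. The sum of the trophoblast markers was higher with dTAG13, at 9537 to 15937 with dTAG13 and 5114 to 6330 with DMSO in DE2, and 10827 to 11598 with dTAG13 and 4763 to 5176 with DMSO in DE1. Of 9 tested, 2 rose and 1 fell in DE2, against 8.65% and 8.31% of all genes. Those that rose were Krt7, a keratin (2.48, adjusted p = 3.55e-05), and Tfap2c, an AP-2 factor (1.58, adjusted p = 0.00434). Ascl2 fell (-3.75, adjusted p = 2.66e-06). Krt7, with a mean of 9234 with dTAG13 and 1654 with DMSO, carries the sum in DE2, while the median log2 fold change of the 9 was -1.01. Gata3 averaged 830 with dTAG13 and 2430 with DMSO there. Elf5, a defining trophoblast factor, had 57.7, 45.8 and 66.8 with dTAG13 and 17.0, 14.3 and 22.8 with DMSO in DE1. Markers of extraembryonic endoderm summed to 23465 to 30044 with dTAG13 and 24951 to 34323 with DMSO in DE2. There 4 of 7 tested fell, among them Apoa1 (-4.54, adjusted p = 0.001), and 1 rose (8.31% and 8.65% of all genes). The median log2 fold change of these 7 was -3.33. Epiblast markers summed to 67666 to 74558 with dTAG13 and 85963 to 92952 with DMSO in DE2. Of these 10, 2 rose and 2 fell there (8.65% and 8.31% of all genes), with a median of -0.60. Cdh1, with a mean of 41315 with dTAG13 and 43351 with DMSO, carries much of these sums. Fgf5, with 7336 with dTAG13 and 16665 with DMSO, carries much of the gap. Pou5f1 averaged 1043 with dTAG13 and 3162 with DMSO in DE2, against 34072 in EPI with DMSO. Definitive endoderm markers summed to 79778 to 105328 with dTAG13 and 74533 to 116327 with DMSO in DE2. Of these 10, 4 fell and none rose there (8.31% and 8.65% of all genes). In DE1 they summed to 69595 to 102618 with dTAG13 and 100573 to 148415 with DMSO. Of the 10, 2 fell and none rose in DE1 (4.02% and 3.74%). The part of these cell types in the levels of Tbx20, Tbx1, Tbx2 or Tbx3 was not tested.

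Over the 24 libraries, the pattern of each member was compared with that of 11345 genes by Pearson's r of the log2 values, as a description in which stage differences weigh most. T was closest to Klhl32 (r = 0.974), Pou6f1 (0.966) and Sprr2a2 (0.951). Eomes was closest to Fgf8 (0.959), Six2 (0.949) and Foxa2 (0.935). Tbx2 was closest to Agap1 and Lhfp (both 0.948) and Igf2bp2 (0.947), and Tbx20 to L1cam (0.951), Ap3b1 (0.948) and Creb3l1 (0.945). Tbx1 (Lrrc8e, 0.860), Tbx6 (Arsi, 0.875) and Tbx3 (Zfp36l1, 0.760) had no gene above 0.9. Among the members, Tbx2 and Tbx20 were the most alike (0.876), then Tbx1 and Tbx20 (0.687), and T and Tbx1 were the most opposed (-0.646).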

How the data were processed

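Polyadenylated RNA of 24 libraries was sequenced, in 8 groups of 3 (1 library per line 7H, 7H1 and 7H2). The deposited values are a normalised signal, read counts per gene divided by DESeq2 size factors by the authors, per the submitters' processing notes, which name mm10; aligner, counter, strand and the DESeq2 version: not given in the sources used here. Only 58.5% to 72% of values under 6 came within 0.1 of whole reads, so no count model was used. The 15037 of 18205 genes that reached 10 in 3 or more libraries entered limma (3.58.1, trend and robust, with statmod 1.5.0 under R 4.3.3) as log2(value + 1), with 8 group means, 16 residual degrees of freedom, two-sided tests and Benjamini-Hochberg adjustment at 0.05, after a test on simulated data. Tables and figures used Python 3.11.15, pandas 2.3.3, numpy 2.4.6 and matplotlib 3.10.9.

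Replicate numbers are cell lines, so libraries of a number are paired: deviations from group means correlated at r = 0.0703 to 0.381 between treatments, and were highest with the own line in 12 of 12. The fit with the line as a block, other pseudocounts, filters, scalings, fits of 1 stage and fits without 1 line were the alternatives. For dTAG13 effects and their differences the block was a separate line term within each stage, with 8 residual degrees of freedom. For the steps between stages it was a line term shared by all stages. P-values measure the spread between these lines' libraries, whose relation is not given. Members, lists and tests were chosen with earlier results of these data known. Named were all members, the other family genes that passed the filter, in each list the 3 genes with the smallest p in a comparison, and the 3 genes most like each member among those with a mean of at least 50. Marker genes, and Mesp1, Msgn1 and Six2 at other stages, are named with their values as context. Identifiers matched GENCODE M21 for 18116 genes. All values are in normalised reads, so precision at low levels is limited by depth, at an estimated 17.2 to 33.9 M reads per library.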

Additional observations from a re-analysis of the deposited data

Results flagged for a closer look

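The dTAG13 effect differed between the endoderm times for 2 members, by a test of the difference itself in limma. For Tbx20 the effect was -3.73 in DE2 and 0.15 in DE1, a difference of -3.88 on the log2 scale (SE 0.82, adjusted p = 0.00657), with lower values in 3 of 3 lines in DE2. For Tbx3 the effect was -2.20 in DE2 and 1.34 in DE1, a difference of -3.54 (SE 0.65, adjusted p = 0.00231). Its dTAG13 libraries lay below all DMSO libraries in DE2 (15.4% of all genes) and above them in DE1 (16.4%). No cause of either difference was tested.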

How the results depend on the processing

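Of 70 results for single members, 21 were called, 9 of them under every alternative, and none of the 21 turned direction. Of those not called, 15 turned direction and 9 gained a call under some alternative; the cause was not tested. With the line as a replicate block, calls numbered 1 in PS (0 without it), 3 in DE1 (0), 6 in DE2 (5), 1 for the effect in DE1 minus PS (0) and 3 for DE2 minus DE1 (2). In DE1 a pseudocount of 10 gave 1 call and a fit of that stage alone 3. Leaving out 1 line gave 2 to 4 calls in DE2 (5 with all lines), 2 to 5 for PS over EPI (4), 2 to 5 for DE2 over DE1 (5) and 0 to 2 for the difference of DE2 and DE1 effects (2). For that difference a pseudocount of 10 gave 3. Direction turned for Tbx3 in EPI under quantile normalisation (0.0165) and for Tbx1 in DE1 with a pseudocount of 0.5 (0.12). Leaving out 1 line, log2 fold changes ranged as follows for members that turned direction. For dTAG13 over DMSO they were -0.48 to 0.29 (Tbx3), -0.68 to 0.17 (Tbx2) and -0.47 to 0.37 (Tbx6) in EPI, -0.00063 to 0.16 (Tbx2) in PS, -1.29 to 0.75 (Tbx1), -0.0096 to 0.30 (Tbx20) and -0.33 to 0.037 (Tbx6) in DE1, and -0.11 to 0.29 (Eomes) in DE2. Tbx2 in PS over EPI ranged over -0.18 to 0.44. Differences of effect ranged over -0.35 to 0.15 (Eomes), -0.018 to 0.68 (Tbx2) and -0.93 to 0.15 (Tbx3) for PS minus EPI. They ranged over -2.74 to 0.75 for DE1 minus PS (Tbx1, listed at 0 in PS with DMSO). For DE2 minus DE1 they were -0.61 to 0.24 (T) and -0.80 to 0.26 (Tbx2). A fit of 1 stage alone gave no value for members below that stage's filter. The standard error of a dTAG13 effect was widest for Tbx1 (1.28), then T (0.69), and 0.44 to 0.58 for the other 5.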
